A study of Mus musculus with 8 samples.

Results

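The transcripts described here encode the numbered subunits of the proteasome, followed from MC/9 cells, a murine mast cell line, into the exosomes that those cells release. Members were the probe sets with a single gene symbol made of Psma, Psmb, Psmc or Psmd and a number. They came to 78 probe sets for 39 genes, out of 45101 probe sets on the Mouse430_2 array. Of these, 18 probe sets (8 genes) stood for core alpha subunits, 16 (11 genes) for core beta subunits, 12 (6 genes) for ATPases and 32 (14 genes) for non-ATPase subunits. There were 4 arrays of exosome RNA and 4 arrays of RNA from the parental cells, both from untreated MC/9 cultures in medium that held bovine serum and a supplement from rat T cells. Exosomes were the material that passed a 0.22 µm filter and was pelleted in an ultracentrifuge. MC/9 is 1 cell line, so the arrays describe that line. The titles call the replicates biological, without saying whether they were separate cultures, and p-values measure the spread between these samples.

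The proteasome is the main protease of the cytosol and nucleus and degrades proteins tagged with ubiquitin. Alpha subunits form the outer rings of its core barrel and gate the entrance, and beta subunits form the inner rings, where 3 of them cut peptides. A regulatory cap binds the barrel. Its ATPases unfold substrates and open the gate, while its non-ATPase subunits recognise ubiquitin, remove it and hold the cap together. In cells of the blood lineage the cutting beta subunits are partly exchanged for inducible ones, which changes the peptides offered to the immune system.

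Promoters of 4 subunit genes are printed because 3 of these genes (Psma3, Psmb3 and Psmd11) were the ones detected on all exosome arrays and Psmb5 encodes a cutting subunit. The sequences run 5′ to 3′ on the gene's strand, from 250 bases before to 50 bases after the start, from RefSeq (GRCm38.p6). Capitals mark every match, on either strand, to the CCAAT box (CCAAT), the GC box (GGGCGG) or the core of the antioxidant response element (TGACNNNGC), and no matches overlapped.
Psma3 (chr12:70974373-70974672, plus strand): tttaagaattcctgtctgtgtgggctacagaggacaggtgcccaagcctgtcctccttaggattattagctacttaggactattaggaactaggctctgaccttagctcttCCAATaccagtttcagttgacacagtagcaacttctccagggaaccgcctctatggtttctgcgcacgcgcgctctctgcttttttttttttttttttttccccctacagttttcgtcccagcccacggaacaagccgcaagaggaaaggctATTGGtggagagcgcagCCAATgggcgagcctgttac
Psmb3 (chr11:97703184-97703483, plus strand): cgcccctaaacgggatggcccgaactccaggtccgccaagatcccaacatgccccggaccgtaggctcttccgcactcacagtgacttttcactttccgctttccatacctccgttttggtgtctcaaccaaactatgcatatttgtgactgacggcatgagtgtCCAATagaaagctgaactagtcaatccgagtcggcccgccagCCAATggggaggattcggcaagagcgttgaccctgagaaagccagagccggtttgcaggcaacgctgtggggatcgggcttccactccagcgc
Psmd11 (chr11:80428365-80428664, plus strand): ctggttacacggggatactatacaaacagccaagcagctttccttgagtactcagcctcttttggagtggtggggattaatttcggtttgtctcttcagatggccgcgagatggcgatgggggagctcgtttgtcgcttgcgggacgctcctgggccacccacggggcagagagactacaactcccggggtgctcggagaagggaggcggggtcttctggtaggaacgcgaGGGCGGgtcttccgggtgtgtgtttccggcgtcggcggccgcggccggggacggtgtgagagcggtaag
Psmb5 (chr14:54617946-54618245, minus strand): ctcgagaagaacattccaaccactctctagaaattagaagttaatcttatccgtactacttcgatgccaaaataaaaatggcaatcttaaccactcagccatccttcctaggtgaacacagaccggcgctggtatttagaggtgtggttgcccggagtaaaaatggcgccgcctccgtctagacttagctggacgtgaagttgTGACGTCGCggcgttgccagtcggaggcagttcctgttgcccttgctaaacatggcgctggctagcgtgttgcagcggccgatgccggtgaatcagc
The promoter of Psma3 held 3 CCAAT matches and that of Psmb3 held 2. Psmd11 had 1 GC box match and Psmb5 had 1 match to the antioxidant response core, the element bound by the transcription factor Nfe2l1, which drives proteasome genes in mammals. Of the 39 genes, 32 had a promoter in the table. The antioxidant response core was found in 5 of these 32 (15.6%) and in 12.5% of all 27025 promoters. CCAAT was in 13 (40.6%) against 37.9% of all, and the GC box in 19 (59.4%) against 35.9%. By class, the GC box was in 4 alpha, 2 beta, 3 ATPase and 10 non-ATPase promoters. These matches are descriptions of letters and were not tested.

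Signals were the deposited linear values, scaled on each array to a 2% trimmed mean of 100. The detection floor of an array was the 95th percentile of 147 probe sets for sensory receptors, keratin-associated proteins and beta-defensins. This floor lay at 247 to 317 on exosome arrays and at 10.5 to 16.6 on cell arrays, and the median of those probe sets at 62.2 to 74.1 and 2.00 to 3.08. A signal above the floor of its array is called detected. Relative to cells, the exosome arrays had log2 signals of the bacterial hybridisation controls that were 4.51 higher (4.44 and 4.58 in the 2 hybridisation batches). From 1808 to 3793 probe sets were detected on an exosome array and from 20278 to 22636 on a cell array. The part of these array differences in the results below was not tested. Each of the 10 mast cell markers was detected in every cell sample, with summed signals of 44177 to 48942 in cells and 1376 to 2095 in exosomes, and none of them was detected on all exosome arrays. Of the T cell, B cell, fibroblast and erythroid markers none was detected on all cell arrays, and Csf1r was the single macrophage marker that was. The summed signals of the T cell markers were 22.2 to 41.4 in cells and 222 to 465 in exosomes, where all 6 measured lay under the floor. Of the other lists, Cd79a, Mrc1 and Col1a2 were each detected on 1 exosome array. The macrophage markers Adgre1 and Csf1r were the only non-mast markers that entered the test below. Both were called higher in exosomes, by 2.97 and 2.72 on the log2 scale, on exosome signals under the floor. In exosomes, fewer vesicles with a transcript and fewer copies per vesicle cannot be told apart.

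Subunit transcripts were readily measured in the cells and mostly not detected in exosomes. On all 4 cell arrays, 62 of the 78 probe sets and 37 of the 39 genes were detected, against 40.1% of all probe sets. The other 2 genes were Psma8, the testis form of an alpha subunit, and Psmb11, the beta subunit of thymic epithelium. Their probe sets were undetected on all 8 arrays, with mean signals of 1.87 and 4.77 in cells. In exosomes, 4 probe sets of 3 genes were detected on all arrays, or 5.13% of the 78 against 1.50% of all probe sets. A further probe set was detected on 3 exosome arrays, 5 on 1 or 2, and 68 on none. Members were bright in cells, and among probe sets with a mean cell signal of at least 500 the share detected on all exosome arrays was 8.67%, against 3 of 40 members. At a cell signal of at least 1000 the shares were 15.3% and 3 of 27. With the floor at the 99th percentile, no member was detected on all 4 exosome arrays.

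**Figure D1:**
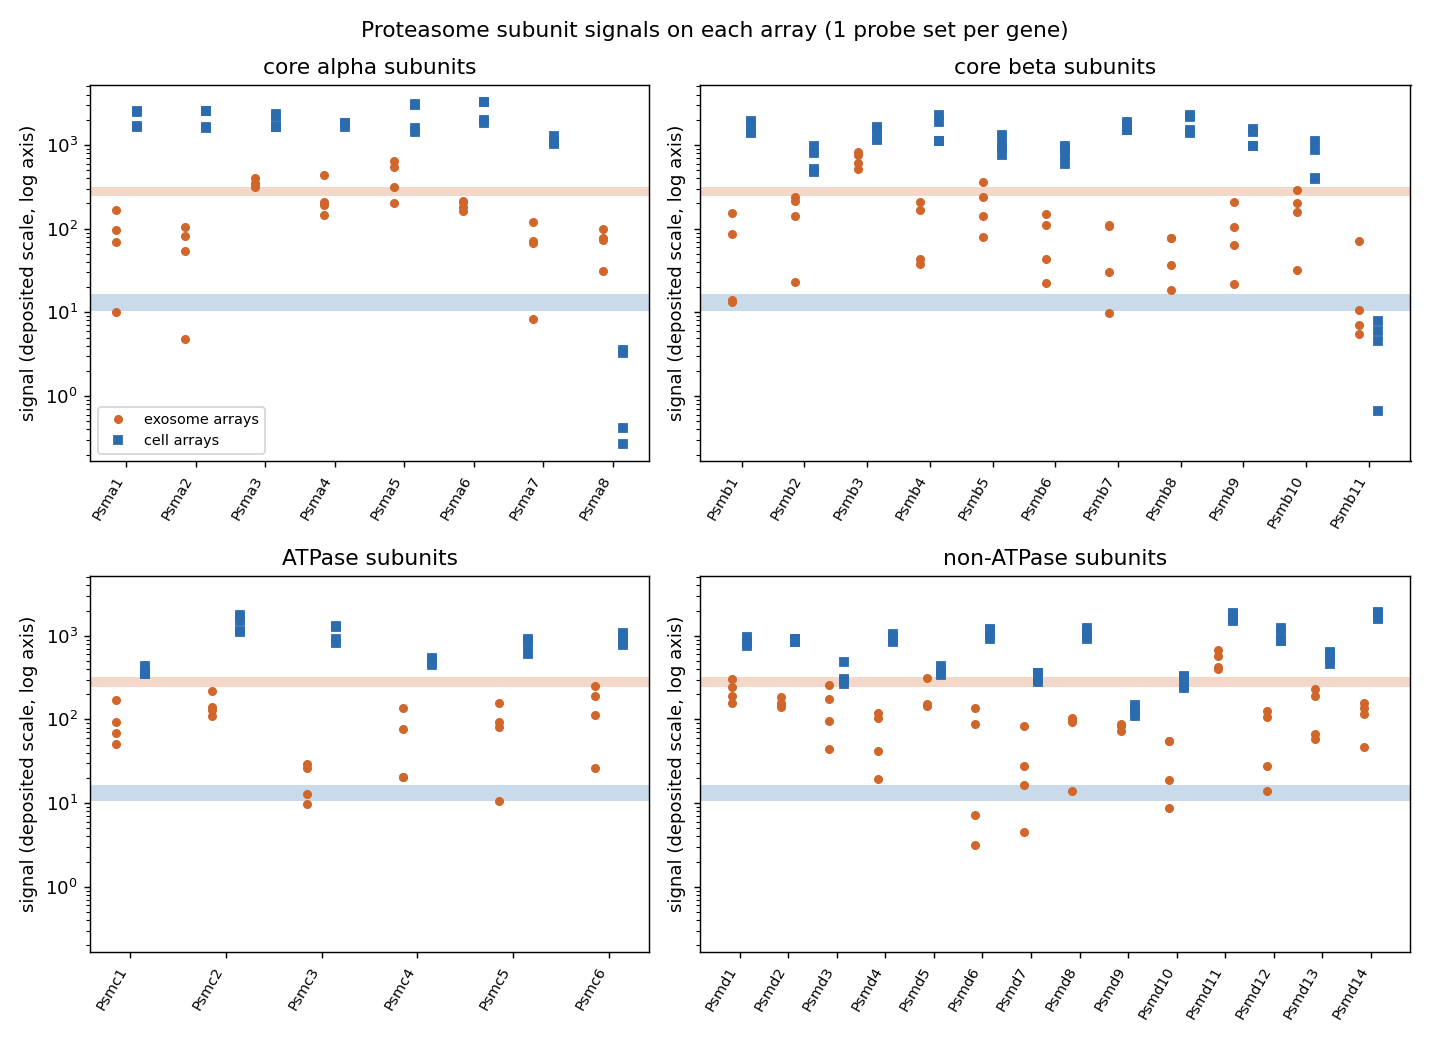
Signal (deposited scale, log axis) of 1 probe set per gene on each of the 4 exosome arrays (circles) and 4 cell arrays (squares), in 4 panels by subunit class. The orange band spans the detection floors of the exosome arrays (247 to 317) and the blue band those of the cell arrays (10.5 to 16.6), and Psma3, Psmb3 and Psmd11 are the genes with all 4 exosome points above their floor.

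Most subunit transcripts were lower in exosomes than in cells on the deposited scale. The test took every probe set detected on 3 or 4 arrays of either group, which held for 63 members of 37 genes, all of them through the cell arrays. Of these 63, 49 were lower, 3 were higher and 11 did not pass (limma on log2(signal + 4), Benjamini-Hochberg adjusted p below 0.05). Among all 20210 tested probe sets 37.5% were lower and 17.9% higher. The share depends on brightness: of the probe sets with a mean cell signal of at least 500, 97.0% were lower and 0.519% higher, and all 40 members that bright were lower, a share near that background. At a cell signal of at least 1000, 98.1% of all were lower and 0.691% higher, and all 27 members were lower. The median log2 difference of members with a mean cell signal of at least 1000 was -4.05 and that of all probe sets that bright was -3.76. Of the 14 tested members with a cell signal under 200, 1 was lower, 2 were higher and 11 did not pass, while of all tested probe sets that dim 11.8% were lower and 27.1% higher. Without regard to the filter, 50 of the 78 probe sets had all exosome signals under all cell signals (16.7% of all probe sets did) and 11 had the reverse (50.2% of all did).

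With each gene given by its probe set of highest mean, 36 of 37 genes were lower, and Psmd9 did not pass. The median cell signal of these probe sets over all 39 genes was 1013. Of all probe sets with a mean cell signal of at least 500, 97.0% were lower, near the share of the genes, but not all 37 were that bright. The class counts below are to be read beside the same 97.0% for genes at 500 or more. Psmc1, Psmc4, Psmd3, Psmd5, Psmd7, Psmd9 and Psmd10 were dimmer on these probe sets, at 378, 490, 337, 379, 323, 130 and 285. Under 200, as for Psmd9, 11.8% of all tested probe sets were lower. Between 200 and 500 no such share was computed. No gene was higher, also at an unadjusted p below 0.05. The classes had similar medians, in log2 differences of -3.67 for alpha, -3.72 for beta, -3.23 for ATPase and -2.81 for non-ATPase genes. The median of all tested probe sets was -0.69, but at a mean cell signal of at least 500 it was -3.33, and at least 1000 it was -3.76. The class medians lay on both sides of -3.33. Of the 37 genes, 29 were detected on no exosome array, so that their fitted differences rest on signals within background and their falls are given as bounds against the floor. An adjusted p printed beside such a bound belongs to the fitted difference of the signals as deposited and does not test the bound. All 37 differences were negative in both hybridisation batches, with a median of -2.97 in batch 1 and -3.53 in batch 2. Exosome arrays spread more than cell arrays, with a median SD over the 37 genes of 1.10 on the log2 scale against 0.25.

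**Figure D2:**
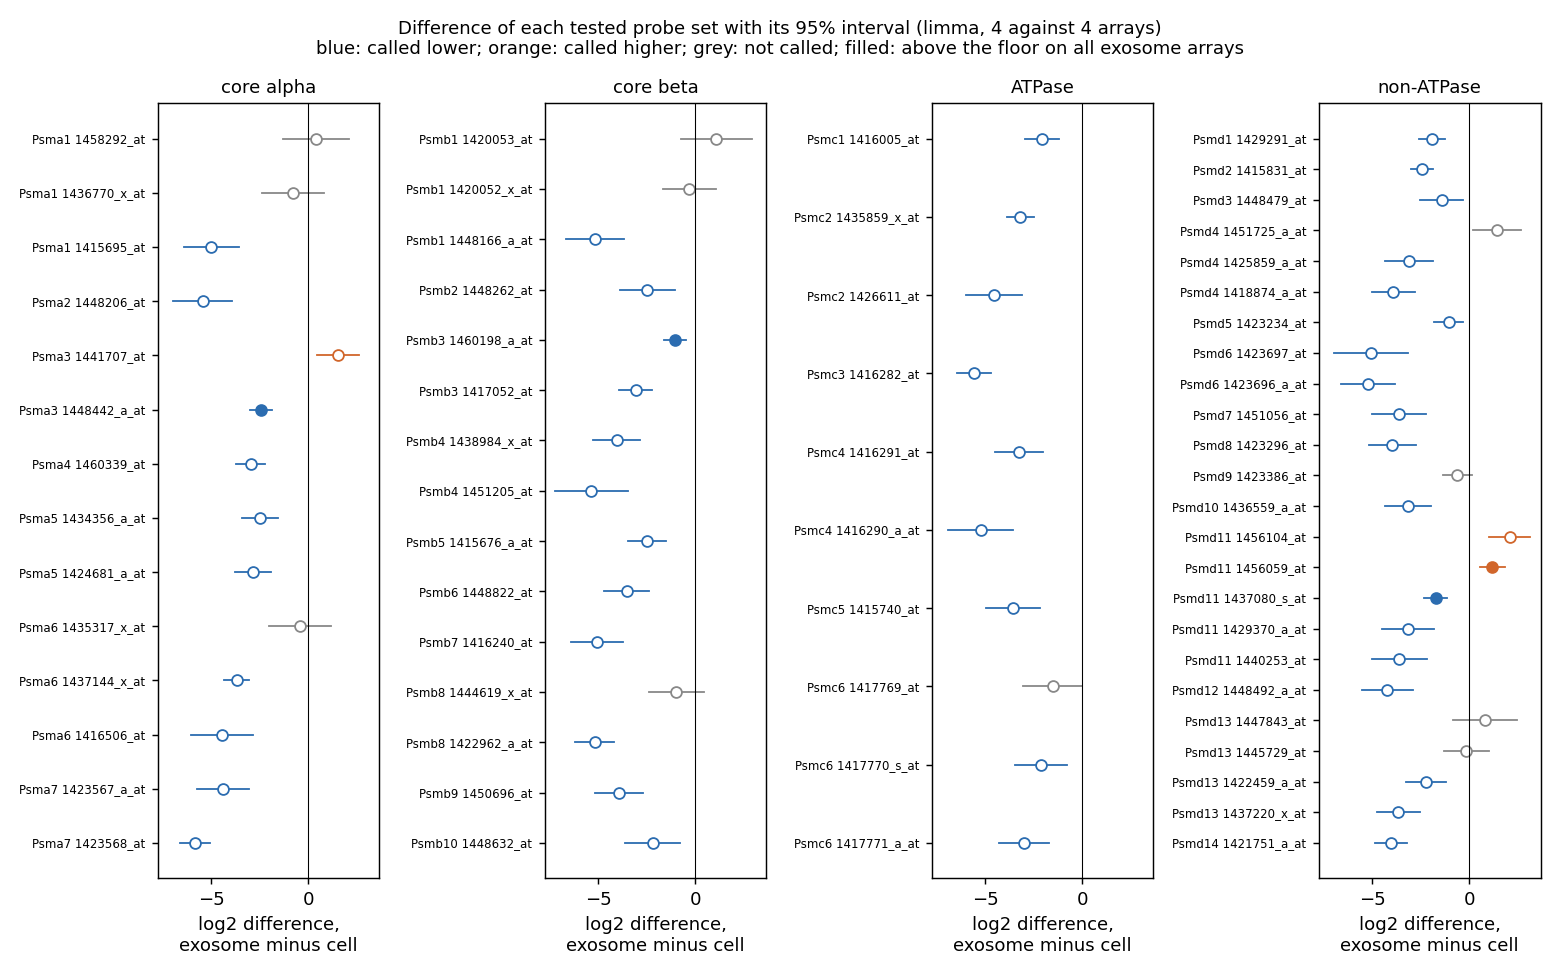
Log2 difference (exosome minus cell) of each of the 63 tested probe sets with its 95% interval, by subunit class. Of these, 49 are called lower (blue), 3 higher (orange) and 11 not called (grey), and the 4 filled points are detected on all exosome arrays.

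Among the alpha subunits all 7 tested genes were lower. Psma3 was detected on every exosome array, where its signals were 318, 344, 356 and 403, and in cells it read 1622, 1648, 2168 and 2342. The groups did not overlap, and Psma3 fell by 2.43 on the log2 scale (SE 0.25, adjusted p = 2.36e-05), a call that was lost at -0.59 with quantile normalization. Psma5, another ring subunit, read 202, 314, 644 and 551 in exosomes, detected on 3 arrays, and 1616, 1435, 2990 and 3105 in cells. Its exosome signals lay under all cell signals, and Psma5 fell by 2.46 (SE 0.42, adjusted p = 0.00061), a call also lost under that normalization, at -0.67. Among the probe sets of highest mean, that of Psma2 had the largest fitted fall of the class, with 81.4, 54.5, 105 and 4.8 in exosomes and 1637, 1593, 2537 and 2531 in cells. None of those exosome signals was detected, which makes Psma2 at least 7.33-fold lower (adjusted p = 8.26e-05). The bounds of Psma1, Psma6 (1437144_x_at) and Psma7 were at least 7.41-fold, 8.99-fold and 4.03-fold, and another Psma6 probe set (1416506_at) gave at least 5.31-fold. Another Psma7 probe set, 1423568_at, had a larger fitted fall (adjusted p = 1.34e-06) but a smaller bound, at least 3.72-fold. It read 10.2, 13.7, 12.4 and 23.4 in exosomes, all undetected, and 933, 955, 1116 and 1115 in cells. Psma4 was detected on 1 exosome array and fell by 2.52 once undetected signals were raised to the floor (adjusted p = 4.59e-05 for the signals as deposited).

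All 10 tested beta genes were lower as well. Psmb3, a structural beta subunit, had the highest exosome signals of its class relative to its own cell signals. It read 760, 821, 520 and 605 in exosomes and 1215, 1154, 1541 and 1636 in cells on probe set 1460198_a_at. Groups did not overlap, and the fall of that probe set was the smallest of the class, since it fell by 1.04 on the log2 scale (SE 0.27, adjusted p = 0.00676). With quantile normalization this difference became 0.89 in the other direction. A different picture came from the other Psmb3 probe set, 1417052_at, which read 66.3, 176, 203 and 95.9 in exosomes, undetected on all, and 1003, 1012, 1152 and 1115 in cells. By that probe set Psmb3 was at least 3.87-fold lower (adjusted p = 6.55e-05).

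The 3 cutting subunits of the standard core were each lower. Psmb5, which cuts after hydrophobic residues, read 358, 241, 78.6 and 141 in exosomes and 759, 932, 1326 and 1037 in cells. The highest exosome signal was detected and lay under all cell signals, and Psmb5 fell by 1.71 once undetected signals were raised to the floor (adjusted p = 0.000834 as deposited). Psmb6, which cuts after acidic residues, read 150, 43.6, 109 and 22.6 in exosomes and 747, 597, 959 and 906 in cells. Psmb7, which cuts after basic residues, read 111, 107, 30.5 and 9.84 in exosomes and 1518, 1492, 1753 and 1870 in cells. Neither was detected on any exosome array, which puts Psmb6 at least 2.86-fold and Psmb7 at least 5.98-fold lower (adjusted p = 0.000243 and 6.53e-05).

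The inducible cutting subunits, which replace those 3 in immunoproteasomes, were measured on all cell arrays and were lower in exosomes. Psmb8 read 77.5, 36.8, 18.4 and 76.8 in exosomes and 1510, 1404, 2156 and 2288 in cells. These exosome signals were all within background, which makes Psmb8 at least 6.52-fold lower (adjusted p = 7.36e-06), the largest fitted fall among the beta genes by their probe set of highest mean. Another probe set of Psmb4, a structural subunit, had a larger fitted fall on undetected exosome signals and was at least 7.29-fold lower (1451205_at, adjusted p = 0.000372). Psmb9 read 206, 64, 104 and 21.9 in exosomes and 962, 962, 1548 and 1419 in cells, a difference of at least 4.33-fold (adjusted p = 0.000184). Psmb10 read 157, 286, 205 and 31.9 in exosomes and 397, 399, 1110 and 862 in cells. The groups did not overlap, and Psmb10 fell by 1.16 once undetected signals were raised to the floor (adjusted p = 0.0126 as deposited). Of the remaining structural beta subunits, Psmb1, Psmb2 and Psmb4 (1438984_x_at) were at least 5.93-fold, 2.40-fold and 5.52-fold lower.

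The 6 ATPases were all lower, and none of their probe sets was detected on any exosome array. Psmc3 had the largest fitted fall, with 26.1, 13, 9.69 and 29.1 in exosomes and 902, 826, 1300 and 1274 in cells. Its exosome signals were under the median of the background probe sets, and Psmc3 was at least 3.82-fold lower (adjusted p = 2.97e-06). Psmc1 had the smallest fall, with 50.5, 92.8, 172 and 69.2 in exosomes and 345, 347, 435 and 383 in cells. These groups did not overlap, and Psmc1 was at least 1.36-fold lower (adjusted p = 0.00128). The bounds of the other 4, Psmc2 (1435859_x_at), Psmc4, Psmc5 and Psmc6, were at least 4.89-fold, 1.77-fold, 2.84-fold and 3.31-fold. Another Psmc2 probe set (1426611_at) gave at least 3.88-fold and another Psmc4 probe set (1416290_a_at) at least 3.37-fold. A bound is limited by the cell signal, so its size does not rank the genes by how much RNA the exosomes lack.

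Of the 14 non-ATPase genes, 13 were lower. Psmd14, the enzyme that removes ubiquitin chains from substrates, read 156, 46.3, 116 and 137 in exosomes and 1670, 1575, 1901 and 1889 in cells. It was undetected in all exosome samples and at least 6.36-fold lower (adjusted p = 1.23e-05). Psmd6, a lid subunit with the largest fitted fall of the class by the probe sets of highest mean, read 7.18, 137, 87.8 and 3.18 in exosomes and 1019, 911, 1166 and 1201 in cells, at least 3.87-fold lower (adjusted p = 0.000563). Psmd5, an assembly chaperone of the cap, had the smallest called fall, with 153, 151, 145 and 316 in exosomes and 435, 372, 341 and 370 in cells. Its groups came close without overlapping, and Psmd5 was at least 1.37-fold lower (adjusted p = 0.0213), a call lost without cell replicate 1, where the log2 difference was -0.98.

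The scaffold subunits Psmd1 and Psmd2 showed lower exosome signals too. Psmd2 was at least 3.16-fold lower, while Psmd1 was detected on 1 exosome array and fell by 1.57 once undetected signals were raised to the floor (adjusted p = 0.00029 as deposited). Psmd4, a ubiquitin receptor of the cap, was at least 3.36-fold lower. Bounds for the lid subunits were at least 1.19-fold for Psmd3, 1.16-fold for Psmd7, 3.76-fold for Psmd8, 3.63-fold for Psmd12 and 2.03-fold for Psmd13, for which another probe set (1437220_x_at) gave at least 1.05-fold. The call of Psmd3 (adjusted p = 0.0331) was lost without exosome replicate 1 or 3 and without cell replicate 1, 3 or 4, at log2 differences of -0.99 to -1.48. Psmd10, known as gankyrin, had a fitted log2 difference of -3.17 (adjusted p = 0.000586 as deposited), on undetected exosome signals. Its bound was at least 1.02-fold, since its cell signals were close to the exosome floor. Psmd9, another assembly chaperone, read 72.3, 84.7, 88.6 and 83.2 in exosomes and 149, 137, 110 and 123 in cells. All exosome signals were under all cell signals, yet the log2 difference of -0.63 (SE 0.34) did not pass (adjusted p = 0.136), and the cell level itself was under the exosome floor.

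Psmd11 was one of 2 subunits with probe sets called in both directions, beside Psma3. It encodes a lid subunit that clamps the cap onto the core, and it has 8 probe sets, of which 5 were tested. Probe set 1437080_s_at read 396, 423, 576 and 677 in exosomes, detected on all, and 1481, 1592, 1866 and 1843 in cells. Exosome signals were all lower, and by that probe set Psmd11 fell by 1.73 on the log2 scale (SE 0.27, adjusted p = 0.000315), which became 0.28 in the other direction with quantile normalization. Probe set 1456059_at read 492, 638, 509 and 659 in exosomes, also detected on all, and 275, 287, 260 and 186 in cells. Here every exosome signal was above every cell signal, with a log2 difference of 1.18 (SE 0.28, adjusted p = 0.00468). That rise turned to -3.27 under hybridisation-control scaling and to -2.29 under poly-A scaling, which set the spiked control transcripts equal across arrays. It was 2.37 with quantile normalization, 1.05 with the probe sets detected on all 8 arrays set equal and 1.02 after background subtraction.

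The other tested probe sets of Psmd11 split as well. By 1429370_a_at it was at least 2.01-fold lower and by 1440253_at at least 1.50-fold lower, each undetected in all exosome samples. Probe set 1456104_at read 79.5, 57.6, 157 and 188 in exosomes, undetected on all, and 22.3, 17.5, 24.6 and 26.9 in cells. It was called higher by 2.08 on the log2 scale (SE 0.48, adjusted p = 0.00383), on signals within the exosome background, and turned to -2.06 under hybridisation-control scaling and to -1.11 under poly-A scaling. Its difference was 0.38 with quantile normalization, 1.96 with the probe sets detected on all 8 arrays set equal and 0.34 after background subtraction. Which stretch of the transcript each probe set reads was not analysed here. By the Affymetrix naming scheme the ending _s_at marks probes shared between transcripts of more than 1 gene, so for 1437080_s_at the signals of Psmd11 and of another transcript cannot be told apart.

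**Figure D3:**
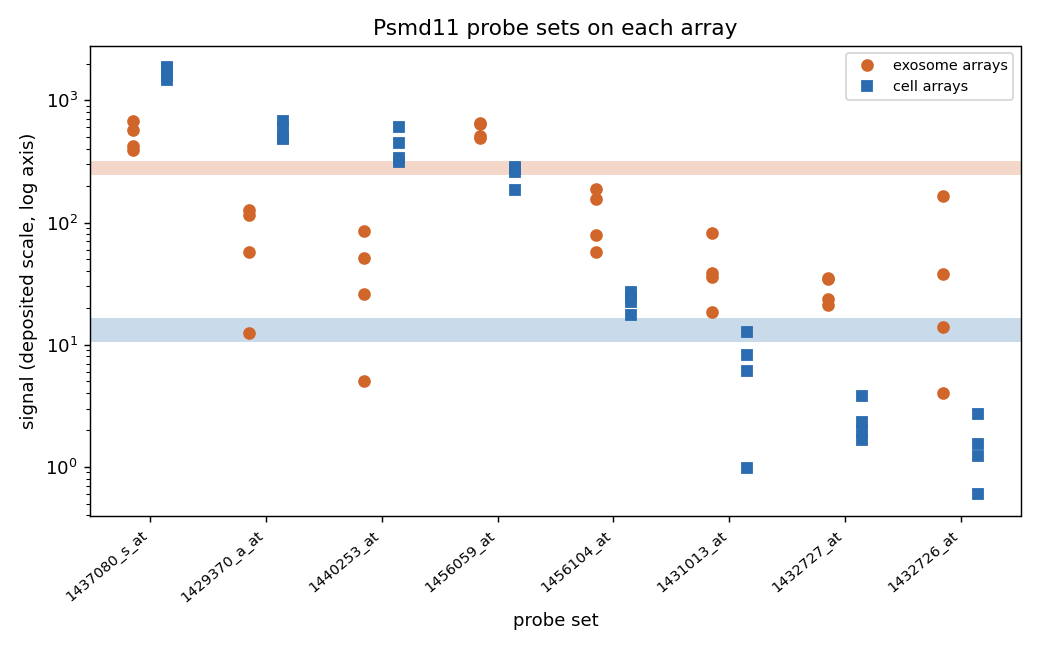
Signals (deposited scale, log axis) of the 8 Psmd11 probe sets on the 4 exosome arrays (circles) and the 4 cell arrays (squares), ordered by cell signal, with the exosome and cell detection floors as orange and blue bands. All exosome points of 1437080_s_at and 1456059_at are detected, below the cell points for the first and above them for the second.

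Other genes had conflicting probe sets too. Of 16 genes with several tested probe sets, 6 (Psma1, Psma3, Psmb1, Psmd4, Psmd11 and Psmd13) had differences of both signs, and Psma3 and Psmd11 had calls of both directions. The Psma3 probe set that rose, 1441707_at, read 119, 104, 239 and 90.5 in exosomes, undetected on all, and 69.2, 56.5, 30.0 and 24.0 in cells. Its groups did not overlap, and the log2 difference was 1.54 (SE 0.49, adjusted p = 0.0197), which turned to -2.68 under hybridisation-control scaling and to -1.73 under poly-A scaling. Its difference was 0.09 with quantile normalization, 1.42 with the probe sets detected on all 8 arrays set equal and 0.48 after background subtraction. Its call was lost without cell replicate 3 or 4, at 1.41 and 1.31. The 11 probe sets that did not pass had mean cell signals of 17.8 to 130, and none was detected on any exosome array. Their log2 differences ran from -1.53 to 1.42, 4 of them positive, with adjusted p from 0.0508 to 0.826. They belonged to Psma1, Psma6, Psmb1, Psmb8, Psmc6, Psmd4, Psmd9 and Psmd13, and each of these genes except Psmd9 had another probe set that was lower. The 15 probe sets that were not tested had mean cell signals of at most 13.2 and were detected on no exosome array.

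The size of the differences depended on how the arrays were scaled. The median difference of the 63 members was -3.07 on the deposited scale, -2.87 with quantile normalization, -3.21 with the 449 probe sets detected on all 8 arrays set equal, and -4.30 after the background median was subtracted. Hybridisation-control scaling gave -7.29 and poly-A scaling -6.27. The median of all tested probe sets moved from -0.69 to -1.66, -0.81, -2.31, -4.72 and -3.85 in the same order. Relative to that median the members lay lower under each scaling, with a gap of -2.39 on the deposited scale, -1.21 with quantile normalization and -1.98 to -2.57 under the other 4. This gap is not matched for brightness, since 13182 of the 20210 probe sets had a mean cell signal under 200. At a cell signal of at least 500 the deposited-scale medians were -3.79 for members and -3.33 for all. Such matched medians were not computed under the other scalings. Quantile normalization moved 36 of the 63 members down and 27 up, while the other 4 moved all 63 down. With it 27 genes were lower: 10 of the 36 lost the call, of which Psmb3 and Psmd11 changed sign and Psma3, Psma5, Psmb2, Psmb5, Psmb10, Psmd1, Psmd3 and Psmd5 stayed negative, at -0.59 to -2.10. Psmd9 gained a call, at -2.06. The number of member probe sets lower was 49 on the deposited scale and 45 to 63 under the others, and that of all probe sets was 37.5% and 39.5% to 94.2%. Higher members numbered 3 on the deposited scale and 0 to 3 under the others. Once undetected signals were raised to the floor, 44 members were lower and 15 higher, and 21.1% and 67.5% of all probe sets.

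**Figure D4:**
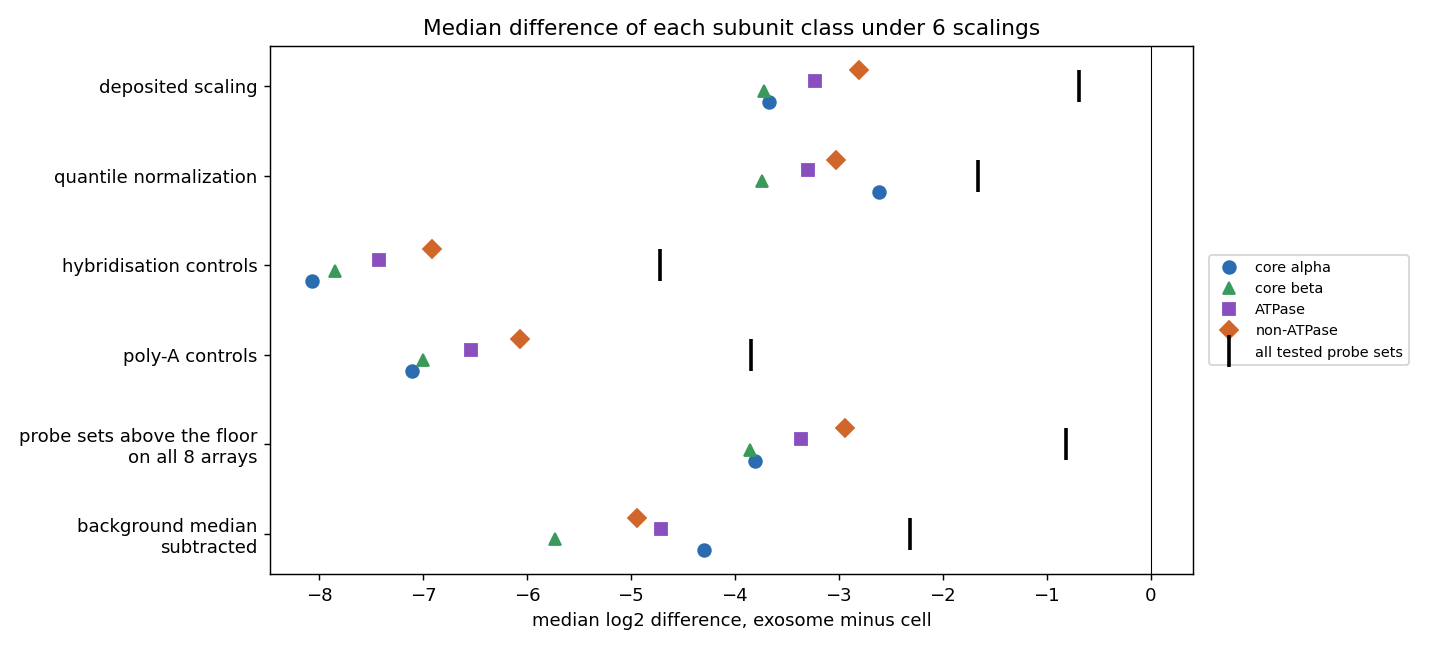
Median log2 difference (exosome minus cell) of the genes of each subunit class, 1 probe set per gene, under 6 scalings of the arrays, with the median of all tested probe sets as a black bar. All class medians lie to the left of the black bar under each of the 6 scalings, and the black bar is not matched to the subunits for cell signal.

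Within the cell arrays the subunits also differed between hybridisation batches, a comparison chosen after the values were seen. Replicates 1 and 2 were hybridised in batch 1 and replicates 3 and 4 in batch 2, and whether the cultures or the hybridisation differed cannot be told apart. With 2 arrays a batch, 22 of the 37 genes were higher in batch 2 and 15 were not called (limma on the cell arrays alone, adjusted p below 0.05). Of the 63 probe sets, 30 were higher and 4 lower. Of all tested probe sets 15.0% were higher and 23.5% lower, and of those with a mean cell signal of at least 500, 50.2% were higher. Among the 40 member probe sets that bright, 27 were higher. The 4 lower ones were dim, namely 1436770_x_at and 1458292_at of Psma1 (0.495-fold and 0.510-fold), 1441707_at of Psma3 (0.464-fold) and 1445729_at of Psmd13 (0.332-fold), while the brightest probe sets of Psma1 and Psma3 were higher and that of Psmd13, at 0.810-fold, was not called. By class the calls were 5 of 7 alpha, 10 of 10 beta, 3 of 6 ATPase and 4 of 14 non-ATPase genes, with median log2 differences of 0.60, 0.54, 0.33 and 0.23. The difference between classes was not tested. Of the 10 mast cell markers 3 were higher in batch 2, 4 were lower and 3 were not called, from Tpsb2, a mast cell tryptase, at 0.271-fold (adjusted p = 8.38e-07) and Kit, the receptor for stem cell factor, at 0.506-fold (adjusted p = 3.95e-05) to the transcription factor Gata2 at 1.41-fold (adjusted p = 0.00494). Their summed signals were 47192 and 48942 in batch 1 and 44177 and 46958 in batch 2. The part of these shifts in the subunit differences was not tested.

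By the probe sets of highest mean, Psmb10 differed most between the cell batches, with 397 and 399 in batch 1 and 1110 and 862 in batch 2, a 2.44-fold higher signal (adjusted p = 8e-05). The other inducible subunits Psmb8 and Psmb9 were 1.52-fold and 1.54-fold higher. A dimmer probe set of Psmb8, 1444619_x_at, read 38.4 and 48.8 in batch 1 and 111 and 137 in batch 2, or 2.70-fold higher (adjusted p = 0.000583). Their standard counterparts Psmb5, Psmb6 and Psmb7 were 1.39-fold, 1.39-fold and 1.20-fold higher. The structural beta subunits Psmb1, Psmb2, Psmb3 and Psmb4 were 1.32-fold, 1.78-fold, 1.34-fold and 1.85-fold higher. Another probe set of Psmb4 (1451205_at) was 1.26-fold higher. Whether the inducible subunits shifted more than the others was not tested. Psma5 was 2.00-fold higher (adjusted p = 4.61e-05). Scaffold subunits stayed close, with ratios of 1.02 for Psmd1 and 0.986 for Psmd2 that were not called (adjusted p = 0.851 and 0.885). Psme1, a subunit of the activator that interferon induces together with the inducible beta subunits, read 1632 and 1646 in batch 1 and 3442 and 3331 in batch 2, or 2.06-fold higher (adjusted p = 1.91e-05). Pomp, the chaperone that matures the core, was 2.05-fold higher. Within the exosome arrays no tested member was called between batches, where 0.396% of all tested probe sets were higher and 0.925% lower.

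**Figure D5:**
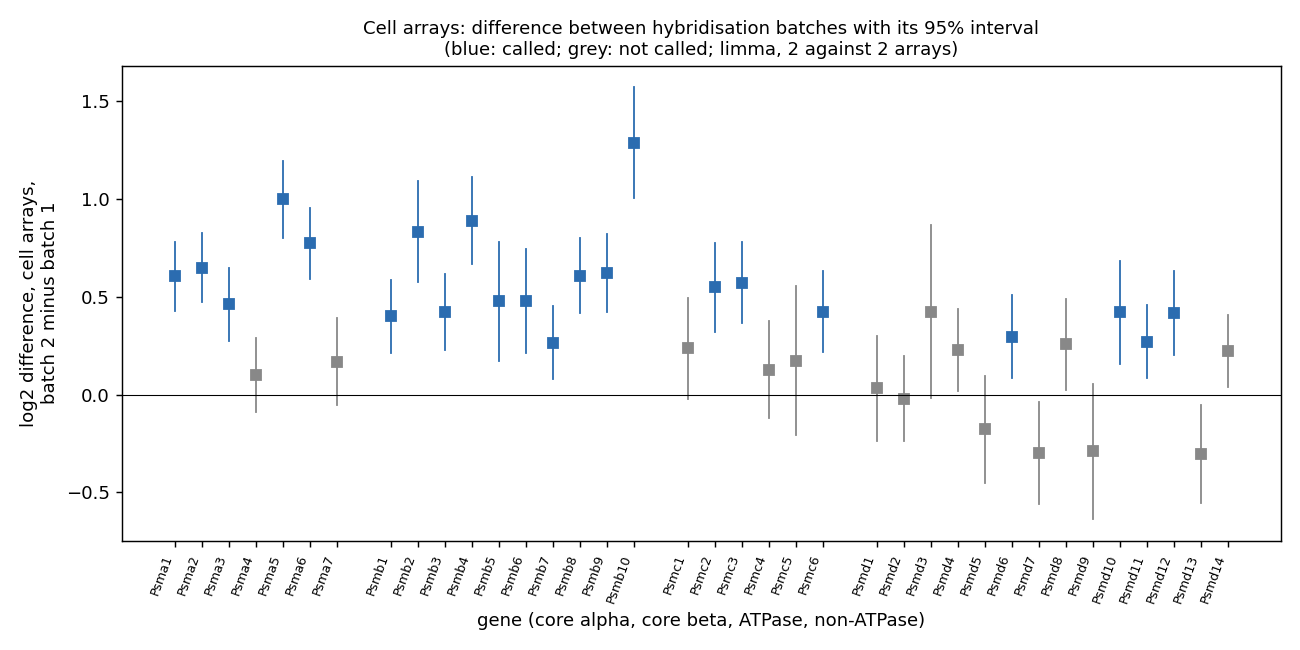
Log2 difference between batch 2 and batch 1 within the 4 cell arrays for 37 subunit genes (1 probe set each), with 95% intervals. Blue marks the 22 genes called higher in batch 2, including all 10 beta genes, and grey the 15 not called.

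Genes that work with the proteasome were mostly lower. Each of these genes was read here by 1 probe set. Of 52 tested genes in 7 lists, 37 were lower, 1 was higher and 14 did not pass, against 37.5% lower and 17.9% higher among all tested probe sets, and 3 were detected on all exosome arrays. All 24 of them with a mean cell signal of at least 500 were lower, as were 97.0% of all probe sets that bright, so the share is near that background. All 5 assembly chaperones were lower, and Pomp had the largest fitted fall among them, at least 4.16-fold. Of the activators and inhibitors 4 of 5 were lower, led by Psme1, which read 68.9, 84.8, 95 and 76.0 in exosomes and was at least 8.54-fold lower (adjusted p = 2.86e-06). All 7 shuttles and segregase genes were lower. Vcp, the segregase that extracts ubiquitinated proteins from complexes, had the largest fitted fall of these, with 6.23, 283, 59.2 and 129 in exosomes and 2239, 2201, 2323 and 2005 in cells (adjusted p = 0.000455). Vcp was detected on 1 exosome array.

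The deubiquitinases bound to the cap were called in opposite directions on the deposited scale. Uchl5 was at least 3.07-fold lower, while Usp14 was the single gene that was higher. Usp14 read 253, 269, 321 and 358 in exosomes, detected on 3 arrays, and 147, 174, 128 and 149 in cells, a log2 difference of 0.98 (adjusted p = 0.0167). The groups did not overlap on the deposited scale, and the difference turned to -3.43 under hybridisation-control scaling and to -2.45 under poly-A scaling. It was 1.50 with quantile normalization, 0.85 with the probe sets detected on all 8 arrays set equal and 0.63 after background subtraction. Of the ubiquitin-conjugating enzymes 18 of 26 tested were lower and 8 did not pass. Ube2e3 had the largest fitted fall of these and was at least 2.65-fold lower (adjusted p = 1.55e-05).

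The 3 partners detected on all exosome arrays were Ube2d3, Ube2v1 and Nfyc. Ube2d3, a conjugating enzyme for many ligases, read 250, 277, 733 and 1341 in exosomes and 2011, 2197, 3808 and 3944 in cells. Batch 2 was the higher one in both groups, and Ube2d3 fell by 2.47 (adjusted p = 0.00221), or by 0.61 with quantile normalization. Ube2v1, a partner in making chains that signal rather than degrade, read 589, 795, 540 and 442 in exosomes and 1187, 1162, 1152 and 1064 in cells. Without overlap between groups, Ube2v1 fell by 0.97 (adjusted p = 0.00887), which became 0.87 in the other direction with quantile normalization. Nfyc, a subunit of the factor that binds CCAAT, read 456, 375, 593 and 578 in exosomes and 277, 309, 438 and 493 in cells. Those groups overlapped, and the difference of 0.41 did not pass (adjusted p = 0.279). Of the other transcription factors of proteasome genes, Nfe2l2 was at least 2.96-fold lower (adjusted p = 3.9e-05), and Nfe2l1 had a difference of 1.07 that did not pass (adjusted p = 0.0631). Uba6 was the single measured gene of the ubiquitin and activating enzyme list, and its difference of -0.95 did not pass (adjusted p = 0.153).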

How the data were processed

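RNA from 4 exosome preparations and 4 MC/9 cell samples was measured on Affymetrix Mouse430_2 arrays, 5 µg of RNA each, per the labels. The deposited intensity values are linear signals per probe set, made with GCOS per the submitters' processing notes. How probes were summarised and background treated is not given in the sources used here. Each array has a 2% trimmed mean of 100, a scaling that multiplies background and signal alike. Gene names came from the platform annotation, and all 78 member symbols matched RefSeq (GRCm38.p6) by gene ID. Per the file headers, the hybridisation dates form 2 batches with 2 arrays of each group in each.

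Values were log2(signal + 4). The pseudocount understates the change of dim probe sets. Differences between groups were tested in R 4.3.3 by limma 3.58.1 (lmFit, eBayes with a trend) over 20210 probe sets, without the 64 controls, with adjusted p below 0.05 called. The number of arrays limits the precision. A fold is given as "at least" where the probe set was undetected on all exosome arrays: the geometric mean of the cells over that of the higher of floor and signal on each exosome array. Levels of different probe sets were not compared. Members, lists and tests were chosen with earlier results of these data known. Named in full are members detected on all exosome arrays, the largest and smallest called fall per class, the cutting subunits, and members that rose, did not pass or disagreed, with further members given by their values. Alternatives covered scaling, floor, pseudocount, filter, blocks, batches and left-out replicates. Same-numbered exosome and cell arrays did not deviate together (correlations of -0.07 to 0.01). Most of the probe sets compared were undetected on exosome arrays, so these correlations cannot tell whether the numbers pair the samples. The main test did not pair them. Protein sequences were not used here. Of 63 genes listed as partners, 54 had a probe set with a single symbol.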

Additional observations from a re-analysis of the deposited data

Results flagged for a closer look

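Of 100 groups of 4 arrays examined (50 probe sets, 2 groups each), 6 held 1 array far from the other 3, by the gap to its neighbour as a share of the range. Chance gives about 5%. Exosome replicate 2 was the high array for Psmc6 (1417769_at, 50.65) and for Psmd4 (1451725_a_at, 167.9). Cell replicate 2 was also the high one for that Psmd4 probe set, at 46.16. Exosome replicate 1 was high for Psma1 (1436770_x_at, 63.91), exosome replicate 4 was high for Psmd5 (1423234_at, 315.7), and exosome replicate 3 was low for Psmd8 (1423296_at, 13.93). All 5 exosome signals were under the floor of their array.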

How the results depend on the processing

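The number of member probe sets that were lower (49) ranged from 41 to 63 over the alternatives, and that of genes (36) from 27 to 37, so these counts stayed within 1.5 times. The 27 came with quantile normalization. Leaving out 1 array gave 47 to 50 probe sets lower, 2 to 5 higher (5 without exosome replicate 3 or 4) and 34 to 36 genes lower. Of all tested probe sets 33.1% to 38.1% were then lower and 14.3% to 18.6% higher. The replicate number as a block gave 48 lower and 4 higher probe sets and 35 genes, and the batch as a block 49, 4 and 36. The 3 higher probe sets became 0 under hybridisation-control scaling and 0 under poly-A scaling, 1 after background subtraction, 1 within batch 1, 15 once undetected signals were raised to the floor and 16 with no filter. In the same order 1.28%, 1.48%, 8.17%, 13.5%, 67.5% and 59.0% of all probe sets were higher. No gene was higher, but 1 was with quantile normalization (Psmb3), once undetected signals were raised to the floor (Psmd9) and with no filter (Psma8). The 4 members detected in every exosome sample became 0 with the floor at the 99th percentile and were 4 to 5 without 1 array.

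Signs changed as follows where either setting gave a call. With quantile normalization Psmb3 (1460198_a_at) became 0.89 and Psmd11 (1437080_s_at) 0.28. With the hybridisation controls, probe sets became negative for Psma1 (1458292_at, -3.47), Psma3 (1441707_at, -2.68), Psmb1 (1420053_at, -2.62), Psmd4 (1451725_a_at, -2.55), Psmd11 (1456059_at, -3.27 and 1456104_at, -2.06) and Psmd13 (1447843_at, -2.76). Probe sets called under neither setting also changed sign, with quantile normalization those of Psma1 (1458292_at, -1.05), Psmb1 (1420053_at, -0.70), Psmd4 (1451725_a_at, -0.59) and Psmd13 (1447843_at, -1.15). After background subtraction these 4 were at -0.97, -0.10, -1.12 and -0.98. The poly-A controls gave -2.71, -1.73 and -1.996 for those of Psma1, Psma3 and Psmb1, -2.29 and -1.11 for Psmd11 and -2.02 for Psmd13, and -1.73, not called, for Psmd4. With undetected signals raised to the floor, values turned positive by construction, since the exosome floor is above these cell signals. They were 2.96 for Psmc6 (1417769_at), 3.77 for Psma1 (1436770_x_at), 1.84 for Psma6 (1435317_x_at), 3.28 for Psmb1 (1420052_x_at), 1.92 for Psmb8 (1444619_x_at), 1.10 for Psmd9 and 2.02 for Psmd13 (1445729_at). Log2 signals of the hybridisation and poly-A controls were 4.51 and 3.52 higher on exosome arrays. Setting either equal therefore moves exosome signals down relative to cells. Under both scalings all 63 tested members moved down, and the median of all tested probe sets went from -0.69 to -4.72 and -3.85. The cause of the changes with quantile normalization and background subtraction was not tested. Undetected exosome signals limit how large a fall can be stated.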
